A study of Mus musculus with 4 samples.

Results

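Gamma delta T cells of the regenerating mouse digit tip were taken as cells with at least 1 UMI (unique molecular identifier, the tag that counts a captured transcript) over Cd3d, Cd3e and Cd3g and at least 1 UMI of Trdc, the constant region of the delta chain. They were thus chosen by measured counts of these 4 genes, whose levels are a description only. There were 292 of them among 93602 kept cells, with 66 in the LNR library, 82 in sham, 79 in SAR131675 and 65 in control diet. Kept cells had 200 to 5500 genes, at most 30000 UMIs and at most 10% mitochondrial UMIs. The digits came from female C57BL/6 mice of 6 to 8 weeks after amputation through the terminal phalanx, and each library pooled the digits of 10 mice. LNR is removal of the inguinal and popliteal lymph nodes of a limb, and sham is the opposite limb after a sham operation. SAR131675, an inhibitor of the lymphatic receptor VEGFR3, was given in chow at 30 mg/kg, with a matched control chow, and the labels give 8 days of diet. Each condition is 1 library and each library is its own batch in the labels, so that batch and condition cannot be told apart, nor, for LNR, the operation and the limb.

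Gamma delta T cells carry a receptor built from a gamma and a delta chain in place of the alpha and beta chains of most T cells. In mouse skin they are of different kinds that arise in fetal life. Dendritic epidermal T cells sit between keratinocytes, carry a gamma chain from Trgv5, kill stressed cells and release growth factors after wounding. Cells of the IL-17 type lie mostly in the dermis, often use Trgv4 or Trgv6, and depend on the receptor Il23r. Trdv4 encodes the delta variable region that pairs with the chains of Trgv5 and Trgv6. T cells can also make RANKL, the product of Tnfsf11, which drives the formation of osteoclasts, and the study asked how loss of lymphatic drainage acts on these bone-resorbing cells.

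The ends of 4 variable segments are shown because the kinds of gamma delta T cell often differ in the gamma segment they use. Trdv4 does not tell them apart, as it pairs with the chains of Trgv5 and of Trgv6. Each line gives the last 120 bases of the segment's GENCODE M21 transcript, 5′ to 3′, on the plus strand of GRCm38, with capitals from the codon of the conserved cysteine at which the junction with the next segment begins.
Trgv5: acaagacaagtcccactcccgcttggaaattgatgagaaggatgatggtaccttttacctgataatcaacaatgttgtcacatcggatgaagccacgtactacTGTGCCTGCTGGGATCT
Trgv6: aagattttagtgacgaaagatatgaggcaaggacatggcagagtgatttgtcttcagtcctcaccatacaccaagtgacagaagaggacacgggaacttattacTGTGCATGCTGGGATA
Trgv4: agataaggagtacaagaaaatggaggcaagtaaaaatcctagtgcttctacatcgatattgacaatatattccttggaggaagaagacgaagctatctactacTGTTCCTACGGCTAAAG
Trdv4: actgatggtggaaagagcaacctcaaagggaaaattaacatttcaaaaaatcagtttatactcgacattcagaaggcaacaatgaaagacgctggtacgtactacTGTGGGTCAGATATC
On GRCm38, Trgv5 lies at chr13:19192278-19192725, Trgv6 at chr13:19190356-19190929, Trgv4 at chr13:19184974-19185506 and Trdv4 at chr14:54074905-54075515, and each is a variable segment gene rather than a whole coding gene. The longest run of bases shared by any pair of these 4 transcripts was 14, between Trgv6 and Trgv4, so that no longer stretch was common to any of them. The gamma constant genes Trgc1, Trgc2 and Trgc3 resemble each other closely, and how their reads were divided is uncertain.

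Depth differed between the 2 experiments. Gamma delta T cells had a median of 2539.5 UMIs in LNR and 2424 in sham, against 6116 in SAR131675 and 6047 in control diet, and the file headers name Cell Ranger 6.1.2 for the LNR and sham libraries and 8.0.1 for the SAR131675 and control diet libraries. Differences in level between the experiments therefore cannot be told apart from counting and depth, and conditions were compared within an experiment. No barcode of a gamma delta T cell was shared between libraries, while 130 barcodes of any kind were shared by LNR and sham and 348 by SAR131675 and control diet. Markers of another cell class made up more than 1% of UMIs in 22, 24, 17 and 15 gamma delta T cells of LNR, sham, SAR131675 and control diet, most often keratins.

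The genes of the rule were well above its limits in most of the cells. The median cell held 5.5, 5, 7 and 7 UMIs of Trdc in LNR, sham, SAR131675 and control diet, and 14, 14, 14 and 13 UMIs over the CD3 genes. Just inside the limit, 13, 11, 7 and 11 cells had 1 UMI of Trdc, and just outside it, 21, 21, 24 and 13 kept cells had Trdc without a CD3 UMI. In keratin-rich cells, which should lack the gene, Trdc was found in 0.0168% to 0.0952% of cells per library, at median depths of 9008 to 13884 UMIs. Genes that the rule did not use were set beside the label. A gamma or delta segment other than Trdc was found in 93.9%, 89.0%, 98.7% and 90.8% of the cells. The same segments were found in 10.9% to 24.0% of the other CD3+ cells, those without a Trdc UMI, and whether those are gamma delta T cells was not tested. After Cd3g, Trdc and Cd3e, the genes that stood highest over all other kept cells in every library were Trdv4, Trgc1, Ctla2a and Trat1, a T cell receptor adaptor. The constant regions of the alpha beta receptor were also found, with a UMI of Trac, Trbc1 or Trbc2 in 50, 55, 69 and 52 of the cells. Trbc2 was at 204, 234, 319 and 230 CPM (UMIs per 1000000 UMIs of the class) in LNR, sham, SAR131675 and control diet, beside 22.8 to 27.1 CPM in keratin-rich cells, and Trac was found in 2, 3, 14 and 9 cells. The markers of alpha beta subsets were near 0, with 4 UMIs of Cd4, 1 of Cd8b1 and 0 of Foxp3 over all 292 cells.

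Among variable segments, Trdv4 was the most widely detected. It was found in 39 of 66 cells in LNR, 65 of 82 in sham, 47 of 79 in SAR131675 and 35 of 65 in control diet, at 392, 697, 470 and 396 CPM. Trgv5, of the epidermal cells, was caught in 11, 12, 10 and 5 cells, from 12, 13, 15 and 8 UMIs. Trgv6 was caught in 2, 1, 8 and 5 cells and Trgv1 in 4, 3, 6 and 8. Trgv2 was found in 16, 26, 33 and 28 cells and the constant gene Trgc1 in 50, 50, 67 and 47. The delta segment Trdv5 was found in 2, 1, 5 and 4 cells. Most cells thus had no UMI of a gamma variable segment that names their kind, and these shares limit the cells with a UMI and not those that use the segment.

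The gamma delta T cells divided into cells of an epidermal gene pattern and cells of an IL-17 type pattern, with almost no overlap. A cell was counted as an Xcl1/Fcer1g cell with at least 2 of Xcl1, Fcer1g, Cd7, Klrd1, Nkg7, Ctla2a and Gzmc and fewer than 2 of the other genes, and as an Il23r/Scart1 cell with at least 2 of Il23r, Scart1, Scart2, Blk, Sox13, Zbtb16, Il17a and Il17f and fewer than 2 of the former genes. These 15 genes were picked after their values were seen, and what follows is a description with no test. Of the 292 cells, 167 (57.2%) were Xcl1/Fcer1g cells, 98 (33.6%) Il23r/Scart1 cells, 1 met both limits and 26 met neither. Xcl1 is a chemokine that draws dendritic cells, and Klrd1 is a receptor chain shared with natural killer cells. By the rule a cell of either kind could hold at most 1 gene of the other set, so low levels of that set are built in, and single cells still held up to 6 UMIs of it among Xcl1/Fcer1g cells and up to 8 among Il23r/Scart1 cells.

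**Figure D1:**
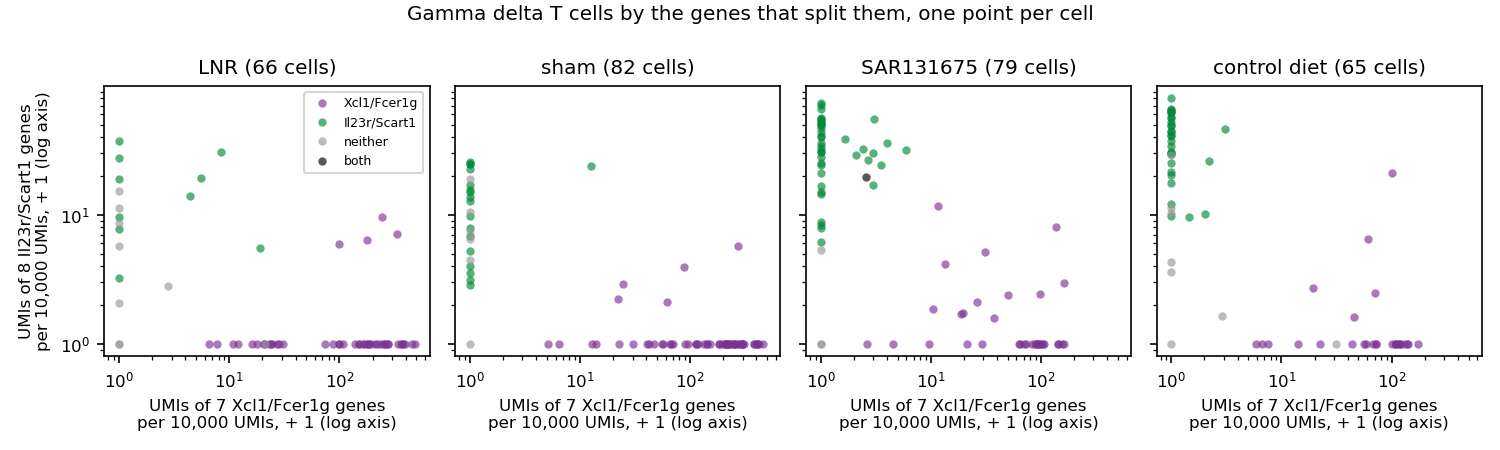
Each point is a gamma delta T cell, placed by its UMIs of the 7 Xcl1/Fcer1g genes (x axis) and of the 8 Il23r/Scart1 genes (y axis) per 10000 UMIs with 1 added, on log axes, with a panel per library. Most cells lie along one axis or the other, and 1 cell of the SAR131675 library met both limits.

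The mix of these cells was alike within an experiment and differed between experiments. The experiments also differ in depth, batch and Cell Ranger version, and the division rests on UMIs of its genes. That difference in mix therefore cannot be told apart from how the libraries were made and counted, and the thinning below evens depth alone. Xcl1/Fcer1g cells made up 47 of 66 cells in LNR, 71.2% (58.7% to 81.7%, 95% Clopper-Pearson interval), and 58 of 82 in sham, 70.7% (59.6% to 80.3%). In the diet experiment they made up 35 of 79 cells in SAR131675, 44.3% (33.1% to 55.9%), and 27 of 65 in control diet, 41.5% (29.4% to 54.4%). Il23r/Scart1 cells were 10 of 66 (15.2%), 18 of 82 (22.0%), 40 of 79 (50.6%) and 30 of 65 (46.2%). With every cell thinned to 1500 UMIs in 1 random draw, 33, 45, 53 and 45 gamma delta T cells were left, since 11, 22, 0 and 1 were shallower and others lost their Trdc or CD3 UMIs. Of these, Il23r/Scart1 cells were 12.1%, 8.89%, 49.1% and 53.3% in LNR, sham, SAR131675 and control diet. Between SAR131675 and control diet the log2 ratio of the Il23r/Scart1 share was 0.13 (-0.59 to 0.87), and between LNR and sham it was -0.53 (-1.81 to 0.66), so that no difference within an experiment was detectable at these cell numbers. All intervals cover counting error only, since 1 library of pooled digits gives no spread between animals.

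Other genes, not used for the division, were ranked by the smallest of the 4 library ratios with 50 CPM added to each level, and the first 12 for each kind are a description of it. In Xcl1/Fcer1g cells, with Cd3e left aside as a gene of the selection rule, these were Trat1, Ctsw, Ctla2b, Prkacb, Rgs1, Tnfrsf9, Klrb1b, Irag2, Atp1b1, Prf1 and Avil. Trat1 was at 387, 611, 1122 and 943 CPM in the Xcl1/Fcer1g cells of LNR, sham, SAR131675 and control diet, and had 0 UMIs in the Il23r/Scart1 cells of every library. Prf1, the pore-forming protein of killer cells, was at 102, 199, 221 and 237 CPM in the former and had 3 UMIs in all of the latter. Tnfrsf9, which encodes the costimulatory receptor 4-1BB, was at 121, 289, 375 and 224 CPM against at most 5.72 CPM.

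In Il23r/Scart1 cells the leading genes were Il7r, Gpr183, Gmfg, Ifngr1, Serpinb1a, Jaml, Cryba4, Maf, Lsp1, Ptpn18, Crip1 and Tmem176a. Il7r, the receptor for interleukin 7, was at 190, 295, 720 and 901 CPM in these cells and at 9.48 to 60.03 CPM in Xcl1/Fcer1g cells. Of chemokine receptors, Ccr2 was at 63.2, 53.6, 297 and 279 CPM against 3.75 to 9.48 CPM, and Ccr6 had 92 UMIs against 1. Jaml stood higher in the Il23r/Scart1 cells of every library although it is on the list of epidermal genes, since its levels there were 221, 179, 555 and 549 CPM against 34.1, 37.9, 176 and 101. The proximal signaling genes also parted, with Lck at 64.5, 90.0, 161 and 171 CPM in Xcl1/Fcer1g cells and at 0 to 3 UMIs in the Il23r/Scart1 cells of a library. Themis, which tunes T cell receptor signals, had 255 UMIs in Xcl1/Fcer1g cells and 0 in Il23r/Scart1 cells.

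**Figure D2:**
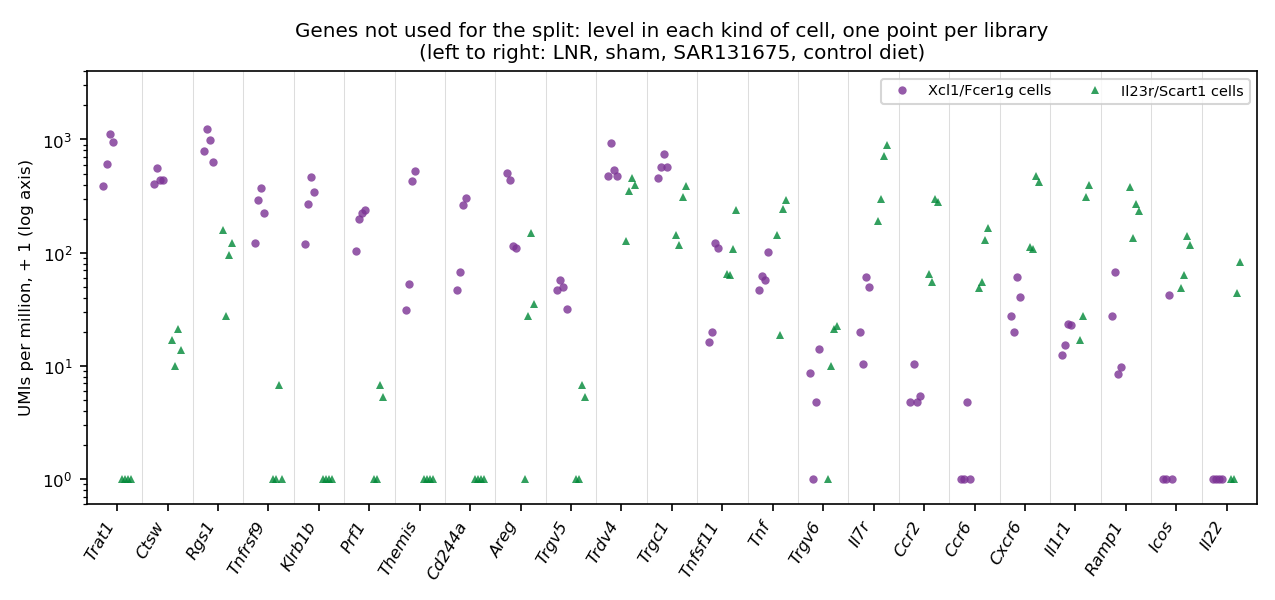
Level of genes that did not define the division, in CPM with 1 added on a log axis, for Xcl1/Fcer1g cells (circles) and Il23r/Scart1 cells (triangles), with 1 point per library and no error bars. Trat1, Klrb1b, Themis and Cd244a were at 0 in Il23r/Scart1 cells of all 4 libraries, while Il7r, Ccr2 and Cxcr6 were higher there in all 4, and Trdv4 and Tnfsf11 were found in both.

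The receptor segments printed above were divided unequally. Trgv5 was found in 11, 11, 8 and 4 Xcl1/Fcer1g cells of LNR, sham, SAR131675 and control diet, and in 0, 0, 2 and 1 Il23r/Scart1 cells. Cells with Trgv4 or Trgv6 but no Trgv5 were Il23r/Scart1 cells in 0, 1, 8 and 7 cases and Xcl1/Fcer1g cells in 2, 0, 4 and 4. Trdv4 was found in both kinds, in 35, 52, 23 and 15 Xcl1/Fcer1g cells and in 2, 12, 24 and 19 Il23r/Scart1 cells. A test of cells with Trgv4 or Trgv6 against cells with Trgv5 was planned for at least 3 libraries with 3 or more cells of each, and could not be made, because LNR had 2 and 11 such cells and sham had 1 and 12.

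Gamma delta T cells were next compared with the other CD3+ cells, 129 in LNR, 119 in sham, 121 in SAR131675 and 75 in control diet, over UMIs summed per library and class in edgeR's quasi-likelihood test with the library as a block. Outside the 4 genes of the rule, 13599 genes were tested, of which 699 (5.14%) were higher and 800 (5.88%) lower in gamma delta T cells at a Benjamini-Hochberg adjusted p under 0.05. The comparison class was mixed. Of its cells, 42.7% to 52.1% per library had a single CD3 UMI, and 38.7% to 52.1% had more than 1% of UMIs from markers of another class, against 21.5% to 33.3% of gamma delta T cells. With at least 2 CD3 UMIs asked of both classes, 181 of 12427 genes tested were higher and 169 lower. Without the block 118 of 13599 were higher and 111 lower. The lists named below were fixed with earlier results of these data known.

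Most of the epidermal list was higher in gamma delta T cells. Of its 20 genes, 15 were higher, 1 was lower and the median log2 difference was 2.39, against -0.039 over all genes tested. The 15 include the receptor segments Trdv4 and Trgv5, which go with the delta chain that the rule selects, so their rise is a description. Xcl1 was at 583, 670, 375 and 185 CPM in the gamma delta T cells of LNR, sham, SAR131675 and control diet, against 4.53, 29.7, 19.2 and 28.0 CPM in other CD3+ cells. These levels did not overlap, and the fit gave a log2 difference of 4.29 ± 0.40 (SE, 4 libraries, edgeR adjusted p = 1.9e-05). Cd7, a surface protein of T and natural killer cells, was at 546, 665, 291 and 266 CPM against at most 29.5, a log2 difference of 4.00 ± 0.27 (edgeR adjusted p = 1.7e-06). Gzmc, a granzyme, was at 426, 87.8, 68.4 and 7.81 CPM against at most 3.40, a log2 difference of 6.38 ± 0.43 (edgeR adjusted p = 1.7e-06). Klrk1, the receptor NKG2D for stress ligands, had a log2 difference of 2.23 ± 0.19, and Itgae, an integrin chain that binds E-cadherin, one of 1.64 ± 0.22. With at least 2 CD3 UMIs in both classes 12 of the 20 genes stayed higher, all of them among the former 15, and Itgae was not among them. Klre1, a killer cell receptor on the list, went the other way, with 0 UMIs in gamma delta T cells and 34 UMIs in 20 other CD3+ cells, at least 5.74-fold lower against a floor of 3 counts over the 4 libraries.

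Of 25 genes of the IL-17 type list, 17 were higher, among them the receptor segment Trgv6, which likewise goes with the delta chain of the rule. Rora was lower, and the median log2 difference was 1.20. Scart1, a scavenger receptor of these cells, was at 33.6, 120, 460 and 476 CPM in LNR, sham, SAR131675 and control diet against at most 9.34 CPM in other CD3+ cells, a log2 difference of 5.34 ± 0.32 (edgeR adjusted p = 6.5e-07). Blk, a kinase of the Src family, was at 22.4, 43.9, 211 and 234 CPM against at most 8.00, with a log2 difference of 4.62 ± 0.28 (edgeR adjusted p = 7.2e-07). Il23r had a log2 difference of 3.28 ± 0.30 and Sox13, a transcription factor of this lineage, one of 3.503 ± 0.46. With at least 2 CD3 UMIs in both classes, 5 of these genes stayed higher, namely Il17a, Sox13, Il23r, Scart1 and Blk. Against other CD3+ cells with a UMI of Trac, Trbc1 or Trbc2 alone, 6 were higher, the same 5 with Il1r1.

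The alpha beta list was lower in gamma delta T cells for 8 of 13 genes, with a median log2 difference of -2.49. Trac, the alpha constant region, was at 22.4, 8.78, 29.5 and 42.9 CPM in the gamma delta T cells of LNR, sham, SAR131675 and control diet against 73.6, 47.7, 112 and 113 CPM, a log2 difference of -1.85 ± 0.23 (edgeR adjusted p = 2.3e-04). Lef1, a factor of naive T cells, had a log2 difference of -3.65 ± 0.31, and Cd5, which dampens receptor signals, one of -2.49 ± 0.39. Foxp3, the factor of regulatory T cells, had 0 UMIs against 43 UMIs in 20 cells, at least 7.27-fold lower. Trbc1 went against its list with a log2 difference of 0.83 ± 0.21 (edgeR adjusted p = 0.024), and 151 of the 292 cells had a UMI of it, 34, 40, 45 and 32 in the 4 libraries. That difference turned to -0.36 with at least 2 CD3 UMIs in both classes. Tcf7 was higher by 1.04 ± 0.20, a call that was also lost at 2 CD3 UMIs.

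Of 16 genes of T cell receptor signaling, 11 were higher and Cd28, a costimulatory receptor, was lower. Cd247, the zeta chain of the receptor complex, was at 182, 243, 952 and 838 CPM in LNR, sham, SAR131675 and control diet, against 29.5, 23.2, 102 and 92.0 CPM, a log2 difference of 3.02 ± 0.18 (edgeR adjusted p = 6.4e-07). Cd28 was at 8.40, 8.78, 28.0 and 19.5 CPM against 39.7, 34.8, 85.6 and 78.7 CPM, with a log2 difference of -1.95 ± 0.26 (edgeR adjusted p = 3.4e-04). With at least 2 CD3 UMIs in both classes, 2 of the 11 remained higher, Cd247 and Fcer1g, and Cd28 remained lower. Of 16 genes of residency and activation, 15 were tested, of which 9 were higher and Icos and Tnfrsf4 lower. Rgs1, which limits chemokine signaling in resident lymphocytes, had a log2 difference of 2.85 ± 0.24, and it was the gene of the 9 that stayed higher at 2 CD3 UMIs. Tnfrsf4, which encodes OX40, had 1 UMI in gamma delta T cells against 110 UMIs in other CD3+ cells. None of 10 cell cycle genes passed edgeR's test or DESeq2's, and 2 of them, Mki67 and Birc5, had an unadjusted edgeR p under 0.05.

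**Figure D3:**
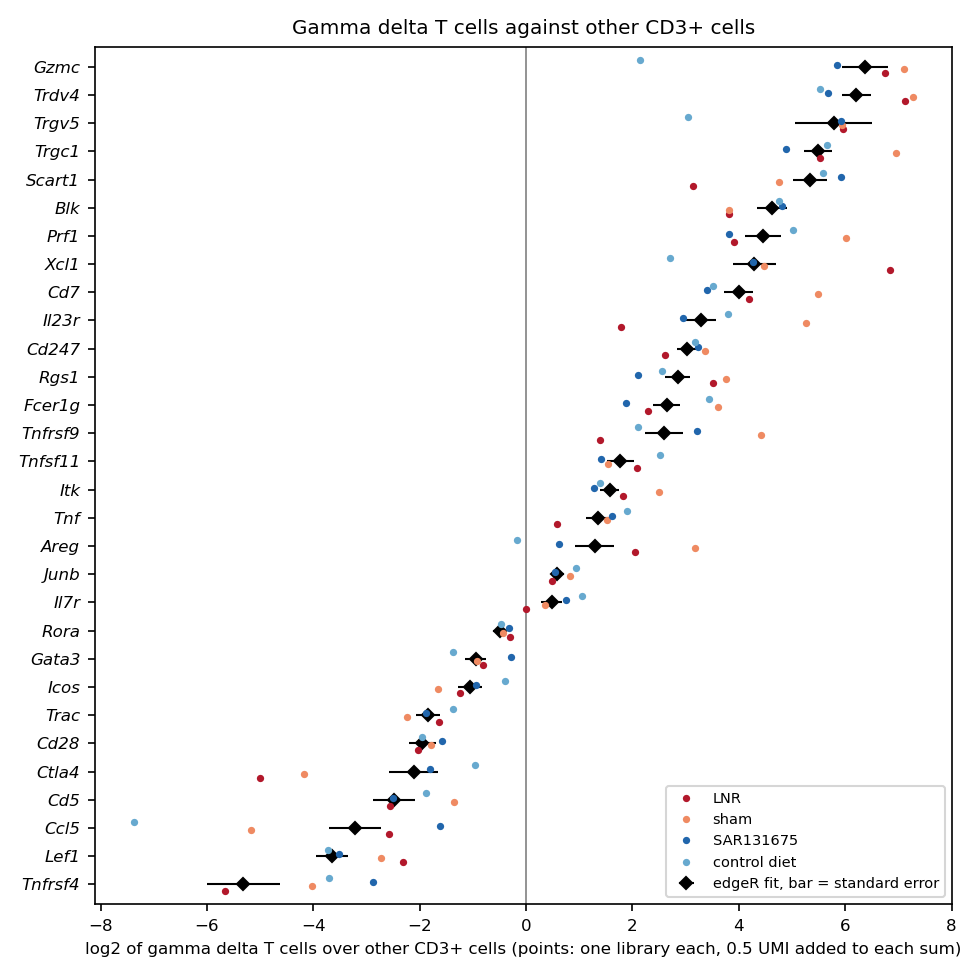
Log2 difference between gamma delta T cells and other CD3+ cells for 30 genes of the lists, with the edgeR estimate and its standard error (diamonds and bars) and the ratio in each of the 4 libraries with 0.5 UMI added to each sum (points). Gzmc, the segments Trdv4, Trgv5 and Trgc1, and Scart1, Blk, Prf1 and Xcl1 stand highest, and Trac, Cd28, Cd5 and Lef1 are below 0 in all 4 libraries.

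By size and the same sign in 4 of 4 libraries, the 12 largest rises were Orm3, Gzmc, Trdv4, Olfm3, Trgv5, Gm16565, Klrb1a, Il17a, Trgc1, Trdv5, Scart1 and Adora3. Trdv4, Trgv5, Trgc1 and Trdv5 are receptor segments that go with the delta chain of the rule, so their rise is a description. With those segments counted, edgeR called 9 of the 12 with at least 2 CD3 UMIs in both classes, 9 against other CD3+ cells with alpha beta segments and 10 without the library block. It called 6 for members without alpha beta segments, and DESeq2 called 9. Orm3, an acute phase protein gene, had 8, 10, 9 and 5 UMIs in 6, 10, 8 and 4 gamma delta T cells of LNR, sham, SAR131675 and control diet and 0 in other CD3+ cells, at least 21.0-fold higher against the floor of 3 counts. Adora3, which encodes an adenosine receptor, was at 30.8, 26.3, 31.1 and 29.3 CPM against 0 to 1.13 CPM, a log2 difference of 5.28 ± 0.59 (edgeR adjusted p = 9.3e-05). Olfm3 had 1 and 8 UMIs in LNR and sham but 200 and 150 UMIs in SAR131675 and control diet. Gm16565, Klrb1a and Trdv5 had 16 to 19 UMIs each and 0 in other CD3+ cells, and their bounds were 12.5-fold, 11.8-fold and 10.5-fold. Like Orm3, they passed the filter on low counts through gamma delta T cells alone, so their same sign in 4 of 4 libraries adds no support.

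The 12 largest falls were Gm7298, Scd3, Awat1, Krt35, Clstn3, Serpina3b, AAdacl4fm3, Il1rl1, Aadacl3, Pnpla5, Tmem45b and Cyp2j12. Of these 12, edgeR called 2 lower with at least 2 CD3 UMIs in both classes, 2 against other CD3+ cells with alpha beta segments and 4 without the library block. Scd3 and Awat1 are lipid genes of the sebaceous gland and Krt35 is a hair keratin. The other CD3+ cells that held them were few, with 202 of 202 Scd3 UMIs of SAR131675 in 1 cell and 70 of 71 in 1 cell of LNR. The keratin markers of the fixed list moved the same way, 4 of 7 lower in gamma delta T cells, and took 0.880% to 1.21% of summed UMIs in gamma delta T cells against 1.31% to 2.35% in other CD3+ cells. All 3 neutrophil markers, the myeloid marker Lyz2 and the mast cell marker Mcpt4 were lower too. With at least 2 CD3 UMIs in both classes, 0 of the 7 keratin markers were lower, with a median log2 difference of 0.19, and 0 of 2 neutrophil markers tested. Lyz2 and Mcpt4 stayed lower. The part of such RNA in these 12 falls was not tested. Il1rl1, the receptor for interleukin 33, was spread over more cells, with 0 UMIs in gamma delta T cells and 16, 11, 44 and 13 UMIs in 10, 6, 6 and 6 other CD3+ cells, at least 14.2-fold lower.

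Tnfsf11 (ENSMUSG00000022015) was found in gamma delta T cells of every library, and at a higher level than in other CD3+ cells. It was at 25.2 CPM in LNR (11.5 to 47.9, exact 95% Poisson interval, 9 UMIs in 7 cells), 52.7 CPM in sham (31.2 to 83.3, 18 UMIs in 9 cells), 109 CPM in SAR131675 (84.8 to 138, 70 UMIs in 25 cells) and 156 CPM in control diet (124 to 194, 80 UMIs in 19 cells). Other CD3+ cells were at 5.67, 18.1, 40.8 and 26.7 CPM. Within each library the gamma delta T cells stood above the other CD3+ cells, and the fit gave a log2 difference of 1.77 ± 0.26 (4 of 4 libraries, edgeR adjusted p = 7.0e-04). Keratin-rich cells were at 0.0693 to 0.228 CPM. The call depended on the comparison class. With at least 2 CD3 UMIs in both classes the log2 difference was 0.55 (edgeR adjusted p = 0.55), against other CD3+ cells with Trac, Trbc1 or Trbc2 it was 0.87 (edgeR adjusted p = 0.14), and without the library block it was 1.80 (edgeR adjusted p = 0.14).

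Gamma delta T cells made up 0.270% to 0.397% of kept cells, while their part of all Tnfsf11 UMIs was larger in each library. They held 9 of 501 UMIs in LNR (1.80%), 18 of 289 in sham (6.23%), 70 of 467 in SAR131675 (15.0%) and 80 of 278 in control diet (28.8%). Few cells carried them, since the 3 cells with most held 5, 11, 30 and 27 of these UMIs. Both kinds of gamma delta T cell had the transcript, with 4, 4, 32 and 25 UMIs in Xcl1/Fcer1g cells and 4, 7, 37 and 55 UMIs in Il23r/Scart1 cells. In Il23r/Scart1 cells of control diet it was at 236 CPM (178 to 307), the highest level of either kind in a library. In SAR131675 the Il23r/Scart1 cells had 37 of 349834 summed UMIs and the Xcl1/Fcer1g cells 32 of 266551, and that small difference was not tested.

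**Figure D4:**
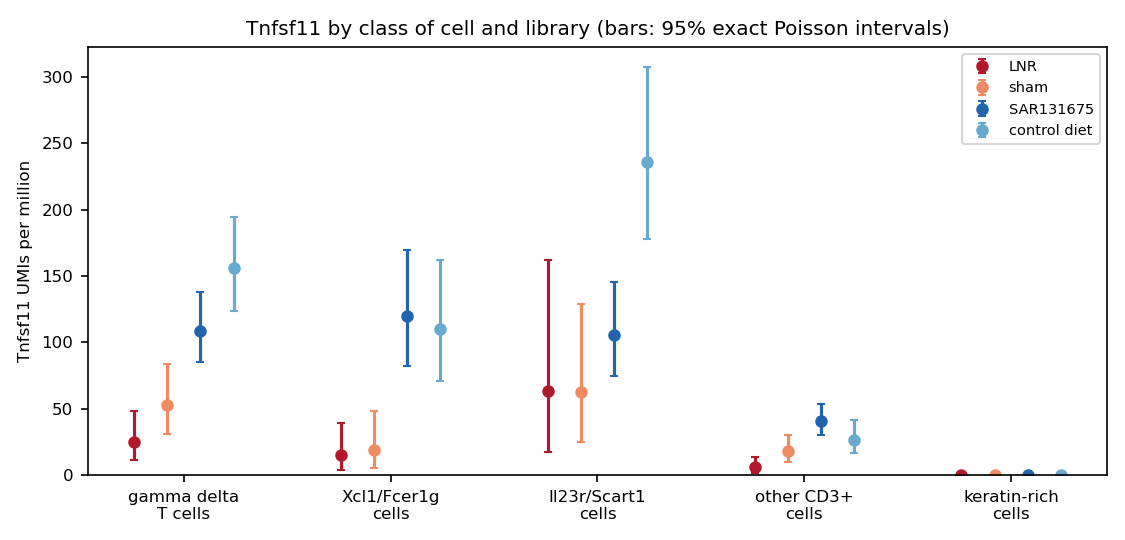
Tnfsf11 in CPM, by class of cell and library, with exact 95% Poisson intervals that cover counting error only. Gamma delta T cells of SAR131675 and control diet were at 109 and 156 CPM, other CD3+ cells at no more than 40.8 CPM and keratin-rich cells at no more than 0.228 CPM.

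Of 15 osteoclast regulators on the list 13 were tested, and Tnfsf11, Tnf, Il17a and Il17f were higher, and Ctla4 and Il1b lower, in gamma delta T cells. Tnf, which adds to osteoclast formation, was at 58.8, 55.6, 157 and 180 CPM in LNR, sham, SAR131675 and control diet against 39.7, 19.4, 51.2 and 48.0 CPM, a log2 difference of 1.36 ± 0.24 (edgeR adjusted p = 0.0024). Ctla4, an inhibitory receptor, had a log2 difference of -2.11 ± 0.47. In the diet libraries it was at 18.7 and 25.4 CPM in gamma delta T cells, beside 21.8 and 32.7 CPM in keratin-rich cells. Whether those levels are background was not tested. At 2 CD3 UMIs, Il17a stayed higher and Ctla4 lower, while Tnf and Il17f did not pass. Ifng, a cytokine that restrains osteoclast formation, had 11 UMIs in 3 gamma delta T cells and 72 in 15 other CD3+ cells, a log2 difference of -1.97 ± 0.71 (edgeR adjusted p = 0.099), and was lower at 2 CD3 UMIs, against cells with alpha beta segments and without barcodes rich in markers of another class. Il1b, an inflammatory cytokine, lost its call in 9 of 16 alternatives, at 2 CD3 UMIs and in DESeq2 among them, and without barcodes rich in markers of another class it did not pass the filter on low counts. Of the 14 repair factors, 13 were tested, and Areg and Pdgfb were higher. Areg, a ligand of the EGF receptor, was at 375, 284, 169 and 66.4 CPM against 90.6, 31.0, 110 and 74.7 CPM, a log2 difference of 1.29 ± 0.37 (3 of 4 libraries, edgeR adjusted p = 0.041), and DESeq2 did not call it. Neither Areg nor Pdgfb passed at 2 CD3 UMIs, against other CD3+ cells with alpha beta segments or without the library block, and of 17 alternatives Areg lost its call in 10 and Pdgfb in 5. Among 15 chemokines and chemokine receptors, Xcl1, Cxcr6 and Ccr2 were higher and Ccl5 lower. Cxcr6 and Ccr2 did not pass under those 3 settings, while Xcl1 did and Ccl5 was lost without the block. At 2 CD3 UMIs or against cells with alpha beta segments Cxcr4 and S1pr1 were lower too.

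The share of gamma delta T cells was compared between conditions to ask whether the loss of lymph nodes or of VEGFR3 signaling went with more of them in the digit. They made up 0.333% of kept cells in LNR (0.258% to 0.423%) and 0.397% in sham (0.316% to 0.492%), a log2 ratio of -0.25 (-0.74 to 0.23). In SAR131675 they made up 0.272% (0.215% to 0.339%) and in control diet 0.270% (0.209% to 0.345%), a log2 ratio of 0.0064 (-0.49 to 0.50). Neither difference was detectable at these cell numbers, and the same held as a share of CD3+ cells, of Ptprc+ cells and of cells that were not keratin-rich. Fewer cells of a kind and less capture of them cannot be told apart in a share.

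Tnfsf11 in gamma delta T cells was lower in both treated libraries than in their controls. Between SAR131675 and control diet the log2 ratio was -0.52 (-1.005 to -0.040) and between LNR and sham -1.06 (-2.40 to 0.17), and the latter interval includes 0. In the diet experiment the log2 ratio was -1.16 (-1.80 to -0.53) in Il23r/Scart1 cells and 0.13 (-0.67 to 0.95) in Xcl1/Fcer1g cells. The former came from 37 UMIs in 15 of 40 SAR131675 cells and 55 UMIs in 13 of 30 control diet cells. Its interval treats UMIs as independent, although single control diet cells held up to 9 of them. The diet difference over all gamma delta T cells did not hold without upper limits on genes and UMIs, which added 22 SAR131675 and 15 control diet cells and gave 0.072 (-0.38 to 0.52). Without barcodes rich in markers of another class it was -0.37 (-0.88 to 0.14), an interval that includes 0. Between LNR and sham the genes of the rule were lower too, with log2 ratios of -0.48 for Cd3d, -0.43 for Cd3e, -0.44 for Cd3g and -0.35 for Trdc. The Tnfsf11 log2 ratio was -1.51 (-2.85 to -0.28) without upper limits, 0.017 (-2.20 to 1.99) in Il23r/Scart1 cells and -0.32 (-2.75 to 2.10) in Xcl1/Fcer1g cells. Without barcodes rich in markers of another class it was -0.87 (-3.03 to 0.97), from 4 and 9 UMIs. Of the 18 sham UMIs 7 were in 1 cell of neither kind, and without the richest cell of each library the ratio was -0.68 (-2.28 to 0.82). The share of cells with a Tnfsf11 UMI was 31.6% (21.6% to 43.1%) in SAR131675 and 29.2% (18.6% to 41.8%) in control diet, and 10.6% and 10.98% in LNR and sham. With 1 library per condition, no difference between conditions has a replicate check.

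A gene was counted between conditions when it was at least 2-fold apart, with 0.5 UMI added to each sum, and its exact 95% conditional interval excluded no change. Among 7949 genes with at least 20 UMIs, 307 (3.86%) were higher and 197 (2.48%) lower in SAR131675 than in control diet. Among 4740 genes, 134 (2.83%) were higher and 149 (3.14%) lower in LNR than in sham. Without barcodes rich in markers of another class the LNR counts were 50 higher and 59 lower. They are out of the fewer genes with at least 20 UMIs left, and so are not shares of the 4740. Markers of other cells were among the higher genes in LNR, with 3 of 3 erythroid and 2 of 2 myeloid markers that had 20 UMIs. Hbb-bs, a hemoglobin chain, had 888 UMIs in LNR against 10 in sham, of which 12 and 9 were outside the richest cell, and Lyz2, a myeloid lysozyme, had 47 against 2, with 1 UMI in each library without the rich barcodes. Markers of other cells also passed 2-fold between SAR131675 and control diet. Krt15, Col3a1 and Hba-a2 were higher in SAR131675, and Krt1, S100a9, Pecam1 and 3 of 4 Langerhans and dendritic markers with 20 UMIs were lower. The part of RNA from other cells in the counts of either experiment was not tested. These intervals treat UMIs as independent, and many genes were carried by a few cells.

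Il17a, the cytokine of the IL-17 type cells, was higher in SAR131675 than in control diet. It had 67 UMIs in 10 SAR131675 cells and 2 UMIs in 1 control diet cell, with no more than 11 UMIs in a cell, and 3 UMIs in 1 LNR cell and 5 UMIs in 3 sham cells. The log2 ratio of SAR131675 to control diet was 4.43 (2.83 to 7.81), and without barcodes rich in markers of another class 4.76 (2.85 to 7.84). All but 3 of these 67 UMIs were in Il23r/Scart1 cells, 64 UMIs in 9 of 40, against 2 UMIs in 1 of 30 in control diet, although the number of such cells did not differ detectably. Il17a is among the 8 genes that define these cells, so its place in them is a description. Il17f had 24 UMIs in 6 SAR131675 cells and 9 in 5 control diet cells, a log2 ratio of 1.04 (-0.069 to 2.38). Between LNR and sham it had 37 UMIs in 6 cells against 3 in 2, a log2 ratio of 3.36 (1.90 to 5.90), and 18 of the 37 were in 1 cell. Without barcodes rich in markers of another class, 12 and 1 UMIs were left.

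Of the epidermal list, Gzmc passed 2-fold in both experiments and Xcl1 in the diet experiment. Gzmc had 44 UMIs in 10 SAR131675 cells against 4 in 3 control diet cells, a log2 ratio of 2.98 (1.67 to 5.07), and 152 UMIs in 10 LNR cells against 30 in 8 sham cells, one of 2.26 (1.71 to 2.89). The richest cell held 29 of the 44 and 85 of the 152 UMIs. Without the richest cell of each library the log2 ratios were 2.57 (0.47 to 5.74) and 1.76 (1.00 to 2.58). Xcl1 had 241 UMIs in 25 SAR131675 cells and 95 in 18 control diet cells, a log2 ratio of 1.01 (0.67 to 1.37), while LNR and sham, with 208 and 229 UMIs, had one of -0.20 (-0.48 to 0.075). Within Xcl1/Fcer1g cells alone the log2 ratio was 1.12 (0.77 to 1.48) in the diet experiment and -0.46 (-0.74 to -0.18) between LNR and sham, ratios that rest on cells chosen in part by Xcl1 itself. None of the other epidermal genes with 20 UMIs passed 2-fold. Without barcodes rich in markers of another class Gzmb did between LNR and sham, with 19 against 8 UMIs and a log2 ratio of 1.54 (0.28 to 2.94). Leaving out the richest cell of each library instead left 4 and 1 UMIs of Gzmb. Of the IL-17 type list, Scart1 was lower in LNR, with 12 UMIs against 41 and a log2 ratio of -1.79 (-2.90 to -0.88), and without barcodes rich in markers of another class it was -0.77 (-2.02 to 0.37). Actn2, also on that list, was lower in SAR131675, with 20 UMIs in 16 cells against 35 in 21 control diet cells and a log2 ratio of -1.12 (-2.01 to -0.30), and it was -1.24 (-2.18 to -0.35) without those barcodes.

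The growth factor Areg had 109 UMIs in 16 SAR131675 cells and 34 in 9 control diet cells, a log2 ratio of 1.34 (0.79 to 1.95), and 134 UMIs in 18 LNR cells and 97 in 20 sham cells, one of 0.40 (0.015 to 0.79). In the LNR experiment its UMIs were almost all in Xcl1/Fcer1g cells, 134 of 134 in LNR and 92 of 97 in sham. In SAR131675, 52 were in 7 Il23r/Scart1 cells and 30 in 8 Xcl1/Fcer1g cells, with the rest of the 109 outside these kinds. The log2 ratios to control diet were 2.11 (1.03 to 3.40) in Il23r/Scart1 cells and 0.037 (-0.78 to 0.86) in Xcl1/Fcer1g cells. Il13, a cytokine of type 2 immunity, had 19 UMIs in 8 SAR131675 cells against 5 in 3, and Csf1, the growth factor of macrophages and osteoclast precursors, 17 UMIs in 9 cells against 4 in 3. Both passed 2-fold, and Csf1 no longer did without barcodes rich in markers of another class, with 7 and 1 UMIs. None of the T cell receptor signaling or residency genes passed 2-fold in either experiment, but without barcodes rich in markers of another class Tnfrsf9 did in the diet experiment, with 89 against 30 UMIs and a log2 ratio of 1.29 (0.67 to 1.93). In LNR, Igf1, a growth factor, had 33 UMIs in 8 cells against 7 in 2 sham cells, and Il1b had 39 UMIs in 3 cells against 0. Both passed 2-fold, and without those barcodes 2 and 5 UMIs of Igf1 and 0 and 0 of Il1b were left. Of the chemokine list, Ccl5 was higher in both treated libraries, with 44 UMIs in 3 SAR131675 cells against 0 in control diet and 24 UMIs in 3 LNR cells against 3 in 1 sham cell, a log2 ratio of 2.74 (1.22 to 5.31) in the latter pair. Without the richest cell of each library 12 and 0 UMIs were left in the diet pair and 8 and 0 in the LNR pair. Of cycle genes, Rrm2 was lower in SAR131675, with 11 UMIs in 6 cells against 39 in 10.

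**Figure D5:**
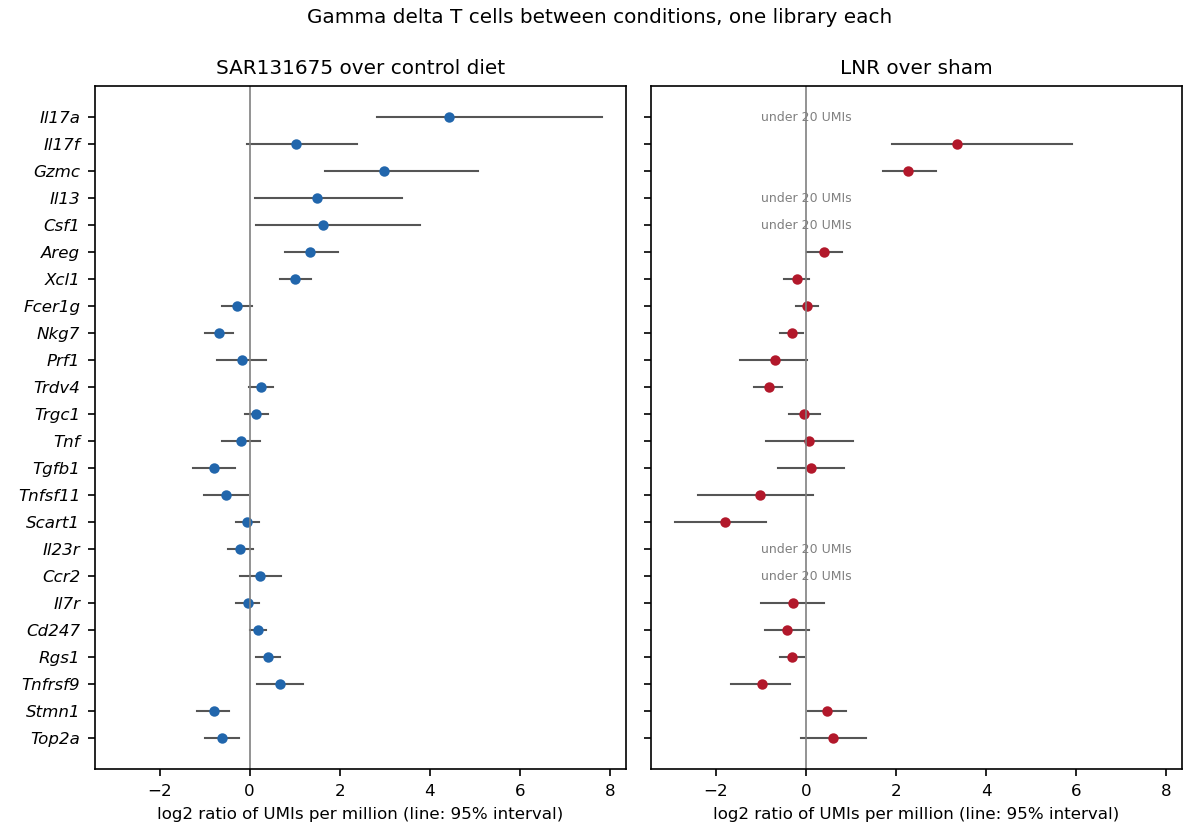
Log2 ratio between the 2 libraries of each experiment in gamma delta T cells for 24 list genes, with 0.5 UMI added for the points and exact 95% conditional intervals as lines that cover counting error only, and a note where a pair had under 20 UMIs. Il17a, Gzmc, Areg and Xcl1 lie above 0 in SAR131675, Gzmc and Il17f above 0 in LNR, and Scart1 below 0 in LNR.

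Genes that pointed the same way in both experiments were 1006 of 1930 with at least 50 UMIs in each pair, close to an even split between same and opposite directions. The 5 furthest up in the treated libraries were Krt79, Htra4, Ly6g6c, Sbsn and Apod, and the 5 furthest down were Acta2, Krt1, Ccn1, Lsm2 and Tm2d2. Without barcodes rich in markers of another class, 2 of the 10, Acta2 and Tm2d2, still lay on the same side in both experiments. The diet ratio changed sign for Krt79, at -1.02 (-3.71 to 1.34), Krt1, at 0.50 (-0.32 to 1.35), and Ccn1, at 2.72 (0.63 to 5.88). The LNR ratio changed sign for Ly6g6c, at -1.29 (-7.00 to 2.35), Sbsn, at -0.70 (-2.40 to 0.82), Apod, at -3.79 (-9.18 to -1.12), Ccn1, at 0.93 (-0.38 to 2.32), and Lsm2, at 0.073 (-1.78 to 1.87), and Htra4 was left with 0 UMIs in LNR and 1 in sham. Some were held by few cells. Krt1 was found in 40 SAR131675 cells, but 71 of its 655 UMIs there were outside its richest cell. Krt79, a keratin of hair follicle ducts, had 98 UMIs against 9 in SAR131675 and control diet, with 94 of the 98 in 1 cell, and 82 against 2 in LNR and sham, with 77 of the 82 in 1 cell. Acta2, smooth muscle actin, had 3 against 60 UMIs and 10 against 261, with 59 and 202 of the control UMIs in 1 cell each. Lsm2, found in 13 to 20 cells per library, had log2 ratios of -0.74 (-1.57 to 0.066) and -0.76 (-1.68 to 0.10), and Tm2d2, in 17 to 24 cells, had -0.83 (-1.72 to 0.0097) and -0.70 (-1.49 to 0.056).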

How the data were processed

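Digits were dissociated and single cells were captured with 10x Genomics 3′ chemistry in 4 libraries. What the authors deposited are matrices of unnormalized UMI counts over 33696 genes. The file headers name Cell Ranger 6.1.2 for LNR and sham and 8.0.1 for SAR131675 and control diet, while the submitters' processing notes name 6.1.2 and GRCm39 for all. Versions were not made equal here, so levels were compared within an experiment.

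The members and gene lists were chosen with earlier results of these data known. Barcodes were kept at 200 to 5500 genes, at most 30000 UMIs and at most 10% mitochondrial UMIs, and no doublet caller was run. Keratin-rich cells, the background class, had no CD3 or Ptprc UMI and at least 1% of UMIs from Krt5, Krt14, Krt1 and Krt10. UMIs were summed per library and class, and CPM is UMIs per 1000000 of that sum. The counts of the 8 sums were tested with edgeR 4.0.16 (quasi-likelihood, TMM, library as a block) for genes with at least 10 UMIs detected in at least 3 sums, with Benjamini-Hochberg adjustment, and DESeq2 1.42.0 was an alternative. The library block pairs the classes because both come from the same pooled mice. With the block, p-values measure the spread of the difference between classes over the 4 libraries, each of a different condition. LNR and sham come from opposite limbs of the same mice and so are not independent in their animals. Conditions have 1 library each and no test. Their shares carry Clopper-Pearson intervals, their levels exact Poisson intervals and their ratios exact conditional intervals, at 95%, for counting error only. Scripts (R 4.3.3, Python 3.11.15, scipy 1.17.1) were tested on simulated data.

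Genes named were the receptor segments, the list genes with at least 10 UMIs, the 12 largest rises and falls between classes with the same sign in every library, and the 5 largest each way with at least 50 UMIs in each pair that pointed the same way in both experiments. Genes named outside this rule, such as those leading each kind of cell, were chosen after their values were seen. Segment sequences are from GENCODE M21 on GRCm38, not the build of the counts, and no coordinate was carried over. An item of the fixed lists is not reported here and was left out of the list counts and of the division of the cells.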

Additional observations from a re-analysis of the deposited data

Results flagged for a closer look

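Some genes in gamma delta T cells stood to one side in SAR131675 against control diet and to the other side in LNR against sham, with both counting intervals off 0, and the difference between the experiments was not tested. The log2 ratios, diet experiment before lymph node experiment, were 0.40 and -0.31 for Rgs1, 0.66 and -0.98 for Tnfrsf9 and 0.24 and -0.19 for Junb, which are genes of residency and activation. Without barcodes rich in markers of another class the lymph node ratios were -0.16 (-0.46 to 0.14) for Rgs1, -0.39 (-1.12 to 0.32) for Tnfrsf9 and 0.052 (-0.21 to 0.32) for Junb, so that no interval was off 0 and Junb changed sign. The diet ratios were then 0.49 (0.20 to 0.78), 1.29 (0.67 to 1.93) and 0.29 (0.098 to 0.48). Stmn1, of dividing cells, had -0.80 and 0.47, and without those barcodes -0.70 (-1.08 to -0.34) and 2.35 (1.46 to 3.35).

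Ccl4 had -4.24 and 4.23, from 1 against 22 UMIs and 29 against 1, in 1 or 2 cells per library. Cxcl2 had -1.08 and 3.78, and 66 of its 113 control diet UMIs were in 1 cell. Without the rich barcodes the diet ratio of Cxcl2 changed sign, at 64 against 8 UMIs and 2.72 (1.65 to 3.99), and LNR and sham had 0 UMIs each. Krt15, a basal keratin, had 1.12 and -1.29, and without the rich barcodes 1.18 (-0.58 to 3.28) and -1.10 (-2.03 to -0.24). The class II genes of dendritic and Langerhans cells had -5.94 and 6.27 for H2-Aa, -5.94 and 5.17 for H2-Ab1 and -5.79 and 5.95 for Cd74, with 207 of the 420 LNR UMIs of Cd74 in 1 cell. Without the rich barcodes these class II genes had at most 3 UMIs in a library. The part of RNA from other cells in these values was not tested.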

How the results depend on the processing

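Between gamma delta T cells and other CD3+ cells, against 699 genes higher and 800 lower, DESeq2 gave 435 and 442, the fit without the library block (the pairing of the classes) 118 and 111, at least 2 CD3 UMIs 181 and 169, a comparison with other CD3+ cells holding Trac, Trbc1 or Trbc2 240 and 156, and members without those genes 154 and 438. Without upper limits on genes and UMIs 1206 of 15111 genes tested were lower. Genes tested were 12427 at 2 CD3 UMIs, 12696 against cells with Trac, Trbc1 or Trbc2 and 12847 for members without them. Leaving out each library in turn gave 384 to 612 higher and 493 to 667 lower, lowest without SAR131675, and without control diet 415 and 524. The higher share of calls was 60.6% against other CD3+ cells with alpha beta segments, 26.0% for members without them, 36.0% without upper limits and 35.9% without barcodes rich in markers of another class. Tnfsf11 no longer passed without the block (1.80), at 2 CD3 UMIs (0.55), against cells with alpha beta segments (0.87) or for members without them (0.96), and ranged from 1.45 to 2.03 with each library left out. The cause was not tested.

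At 2 CD3 UMIs the log2 difference changed sign for Il18r1 (-0.38), Trbc1 (-0.36), Fyn (-0.31), Lcp2 (-0.22), Ptprc (-0.092), Cd2 (-0.34), Cd69 (-0.12), Nr4a3 (-0.0087), Junb (-0.071), Krt1 (0.36), Krt10 (0.51) and Krtdap (0.46). Against cells with alpha beta segments it did for Il18r1 (-0.27), Trbc1 (-0.21), Fyn (-0.14), Cd2 (-0.092) and S100a9 (0.12). For members without those segments it did for Trbc1 (-8.83), which that choice removes, Cd2 (-0.13) and Nr4a3 (-0.00380), and without rich barcodes for Krt1 (0.070). Of 1733 values for 106 named genes, 1432 kept direction and call, 280 lost the call and 21 changed sign. Of 107 genes named, 29 kept their call under every alternative that gave a value, among them gamma and delta segments that go with the rule.

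For Tnfsf11 between SAR131675 and control diet the log2 ratio was 0.072 without upper limits, -1.16 in Il23r/Scart1 cells alone and 0.13 in Xcl1/Fcer1g cells alone, the latter choices made after seeing the data. Thinned to 1500 UMIs per cell it was 0.0049, from 13 and 11 UMIs of 1 random draw. Genes past 2-fold with at least 50 UMIs were 117 higher and 58 lower in SAR131675 and 45 and 39 in LNR. Without rich barcodes LNR had 50 and 59, and without upper limits 267 lower. No paired analysis was possible between conditions because each has 1 library. The comparison of cells by gamma segment was not run, since too few libraries held 3 cells of each.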
